A study of Vitis vinifera with 11 samples.

Results

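Transcript levels in young grapevine (Vitis vinifera) inflorescences were compared between neighbouring nodes of the shoot, position 2 against position 1, where position 1 lies nearest the apex. The comparison rests on 4 of the 11 messenger RNA libraries of the study. They hold 2 libraries of position 2 and 2 of position 1, and at each position 1 library came from the picovine line 06C021V0046 and 1 from the picovine line 06C008V0003. The comparison was made within each line, and genes that moved the same way in both lines are reported. The 2 inflorescence libraries of position 3, from the same lines, entered the fit and show what followed, and 3 tendril libraries (positions 1, 2 and 3 of the control vine Pinot Meunier L2) and 2 leaf pools (06C021V0046 and Pinot Meunier L2) were used as context. All plants grew under 16 h days at 25 °C and 8 h nights at 20 °C. Values of a pair of libraries are given with 06C021V0046 before 06C008V0003 throughout.

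In grapevine, lateral meristems formed at the shoot apex can develop into either inflorescences or tendrils. The gibberellin pathway acts on that choice, and a dwarf vine with an altered DELLA repressor bears inflorescences where other vines bear tendrils. Structures farther from the apex were initiated earlier, so position 2 holds an older inflorescence than position 1. Flower organs are then laid down under floral MADS-box transcription factors, of which the B class acts in petals and stamens and the AGAMOUS group in stamens, carpels and ovules.

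Depth was 11.36 and 13 M reads (M, 1e6) at position 2, and 12.06 and 14.55 M reads at position 1. The B-class gene MADS9 (the grapevine PISTILLATA) stood at 635 and 723 RPKM (reads per kilobase of gene and per M reads mapped) at position 2 and at 578 and 583 RPKM at position 1, and stayed at or below 0.117 RPKM in the tendrils and at 0.63 and 0.232 RPKM in the leaf pools. All 4 libraries therefore carried floral organ transcripts. MADS9 speaks to the organ only, and it could not show an exchange of position or line labels. The replicates of a position are different genotypes, so line and replicate cannot be told apart, and the labels do not give the number of plants behind a library. In such whole-organ samples, fewer cells of a type and less RNA per cell cannot be told apart.

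Of 18839 genes with at least 1 RPKM in at least 2 inflorescence libraries, 289 (1.53%) were up at least 2-fold in each line and 224 (1.19%) were down at least 2-fold in each line. Only 6 genes (0.0318%) passed that limit in opposite directions. Folds here are differences of log2(RPKM + 1), which understate changes of low genes. At the limit, the smaller of the 2 line changes was 1.00 in the last gene counted up and 0.998 in the next one. Taken singly, 06C021V0046 had 613 genes up and 828 down, and 06C008V0003 had 489 up and 468 down. The genes that moved in both lines are by definition a part of each of these sets. Of the genes up in both lines, 51 reached 4-fold, 15 reached 8-fold and 5 reached 16-fold in each line, and of those down 24, 5 and 1 did. With a pseudocount of 0.1 or 5 in place of 1, 539 or 108 genes were up and 396 or 62 down in both lines.

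In the test of the same step, limma with the line as a block, 992 genes (5.27%) were called higher and 1042 (5.53%) lower at position 2 at an adjusted p under 0.05, and all 2034 had the same sign in both lines. These held 288 of the 289 genes up and 222 of the 224 genes down in both lines. The fitted change is the mean of the 2 line changes, and its spread grows where the lines disagree. Both agreements therefore follow largely from the fit and are no separate check. The number of calls depends on the pairing and on each position 2 library. Without a position 2 library, the residual of the fit comes only from how the lines differ between positions 1 and 3. Whether the values or that spread moved the counts was not tested. Without the block 3 genes were called higher and 7 lower, and with no filter on low genes 171 and 110. Of the 44 called genes named in the text, 40 lost their call without the block (the exceptions were LOC100263177, LOC100265128, LOC100241824 and LOC100259372) and 28 lost it with no filter, where the adjusted p is given beside the gene. Without the position 2 library of 06C021V0046 81 were called higher and 40 lower, and without that of 06C008V0003 124 and 63. The other count that moved by over 1.5 times downward was that of lower genes without the position 1 library of 06C021V0046, at 497. Without either position 3 library the counts were larger, 1832 and 1782 higher and 1971 and 1937 lower. A single gene taken alone cannot pass a permutation test. Even with the pairing by line ignored, the 6 splits of 4 libraries allow no two-sided exact p below 0.333. Swaps within the lines, which keep the pairing, are fewer still.

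**Figure D1:**
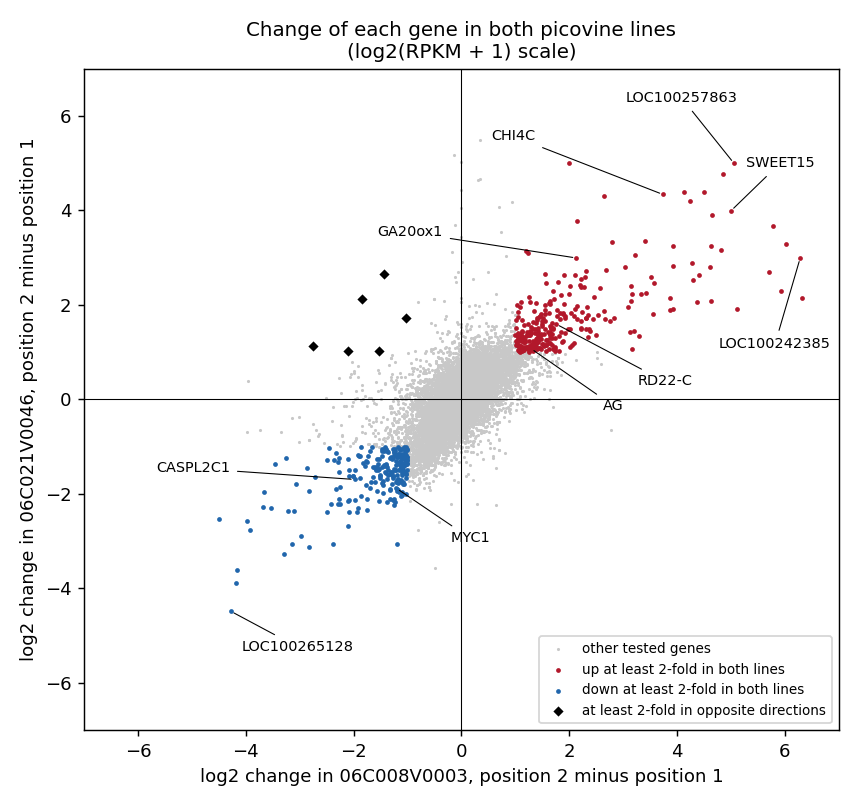
Each point is a tested gene, with its log2 change from position 1 to position 2 in 06C008V0003 on the x axis and in 06C021V0046 on the y axis, both on the log2(RPKM + 1) scale. The 289 genes up and the 224 genes down at least 2-fold in both lines fill the upper right and lower left corners, and the 6 genes that moved in opposite directions all lie in the upper left.

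The levels of the genes up and down at the 2 positions follow from the rule that chose them and are given as a description. The genes up had a median of 11.4 RPKM at position 2 and 2.20 RPKM at position 1, and of 22.8 RPKM at position 3. The genes down had a median of 3.44 RPKM at position 2 and 12.2 RPKM at position 1, and of 1.85 RPKM at position 3. Of the 289 genes up, 117 (40.5%) were under 1 RPKM in every tendril library and 110 (38.1%) in both leaf pools, against 7.39% and 4.54% of all tested genes, whose levels were not matched. Of the 224 genes down, 47 (21%) were under 1 RPKM in every tendril library and 14 (6.25%) in both leaf pools.

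The lines differed in where the genes up stood. Of the 289, 197 (68.2%) were higher in 06C021V0046 than in 06C008V0003 at position 2 and 229 (79.2%) at position 1. At position 3, 166 (57.4%) were. Among all tested genes 44.9% were higher in 06C021V0046 at position 2, 40.2% at position 1 and 36.6% at position 3. Of the 224 genes down, 126 (56.2%) were higher in that line at position 2 and 125 (55.8%) at position 1. These are counts over genes of the same libraries and were not tested.

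Among the 274 tested genes with a name, 25 were called higher and 21 lower, beside 5.27% higher and 5.53% lower over all tested genes. The largest named rises were in a sugar exporter, a chitinase and a gibberellin synthesis enzyme. SWEET15, of the SWEET family that lets sugars out of cells, had 71.8 and 45.8 RPKM at position 2, against 3.58 and 0.456 RPKM at position 1. Both libraries of position 2 were far above both of position 1, and the mean log2 change was 4.50 ± 0.23 (SE from limma, 2 libraries a position, adjusted p = 3.6e-05). The changes in the lines were 3.99 and 5.01. The ratio of position 2 to position 1 was 20.1 in 06C021V0046 (95% counting interval 15.2 to 27.1) and 100.5 in 06C008V0003 (50.7 to 234), the second resting on 718 reads at position 2 and 8 reads at position 1. SWEET15 was listed at 0 in both leaf pools and in the tendrils of positions 1 and 2. CHI4C, a chitinase of the pathogenesis-related group, had 66.9 and 22.0 RPKM at position 2 and 2.36 and 0.718 RPKM at position 1 (log2 change 4.04 ± 0.24, adjusted p = 7.4e-05). Its ratios were 28.3 (19.7 to 42.2) and 30.6 (16.9 to 62.0), so the intervals of the lines overlapped, and 06C021V0046 held more of it at both positions. Both genes went on to higher levels at position 3, where SWEET15 reached 291 and 104 RPKM and CHI4C 398 and 95 RPKM.

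RD22-C, related to a dehydration-responsive gene of Arabidopsis, was the most abundant named gene with a 2-fold rise in both lines after the germin-like GER6. RD22-C had 661 and 635 RPKM at position 2 and 218 and 187 RPKM at position 1, with no overlap (1.68 ± 0.19, adjusted p = 0.00206). GER6 had 1331 and 534 RPKM at position 2 and 507 and 184 RPKM at position 1 (1.46 ± 0.16, adjusted p = 0.00193). For GER6 the groups did not overlap but lay close, and 06C008V0003 was the lower line at both positions. HYD2 had 8.63 and 7.36 RPKM at position 2 and 3.66 and 2.99 RPKM at position 1 (1.06 ± 0.19, adjusted p = 0.0113). Leaving out the position 2 library of 06C021V0046 ended these calls, with adjusted p of 0.0834, 0.0911 and 0.209 in that order, and leaving out that of 06C008V0003 gave 0.0405, 0.0553 and 0.136. With no filter the adjusted p of HYD2 was 0.0683.

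Floral MADS-box genes did not move as a block. Of 11 tested with limma, 3 rose, 0 fell and 8 did not pass the test (at an unadjusted p under 0.05, 3 were higher and 1 lower), with a median log2 change of 0.21 against 0.04 over all genes. Over all tested genes 5.27% were called higher and 5.53% lower. The 3 that rose were AG, MADS1 and MADS5, all of the AGAMOUS group. AG, whose relatives specify stamens and carpels, had 183 and 213 RPKM at position 2 and 86.2 and 86.4 RPKM at position 1 (1.18 ± 0.14, adjusted p = 0.00212). The lines were nearly equal at position 1 and both position 2 values lay above them. MADS1 had 92 and 94.2 RPKM at position 2 and 48.1 and 53.2 RPKM at position 1 (0.87 ± 0.14, adjusted p = 0.00869). MADS5, related to the ovule identity gene SEEDSTICK of Arabidopsis, had 7.91 and 7.23 RPKM at position 2 and 2.83 and 2.70 RPKM at position 1 (1.19 ± 0.25, adjusted p = 0.0215). At position 3 AG had 307 and 380.1 RPKM, MADS1 130.3 and 167 RPKM and MADS5 8.50 and 15.5 RPKM. How reads shared by near-identical copies were counted is not given in the sources used here, so a level may mix copies. Leaving out the position 2 library of 06C021V0046 ended the 3 calls (adjusted p 0.0781 for AG, 0.215 for MADS1 and 0.344 for MADS5), as did leaving out that of 06C008V0003 (0.0635, 0.0906 and 0.110). With no filter the adjusted p was 0.0519 for MADS1 and 0.102 for MADS5.

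The B-class genes and the SEPALLATA-like MADS2 were already high at position 1. TM6 had 221 and 271 RPKM at position 2 and 218 and 206 RPKM at position 1 (log2 change 0.21 ± 0.19, adjusted p = 0.529). AP3 had 72.6 and 102 RPKM at position 2 and 65.1 and 78.6 RPKM at position 1 (0.26 ± 0.16, adjusted p = 0.327), and MADS9 changed by 0.22 ± 0.15 (adjusted p = 0.369). MADS2 had 180.3 and 199 RPKM at position 2 and 196 and 188 RPKM at position 1, with a change of -0.02 ± 0.14 that was 0.03 under quantile normalization. The groups overlapped for MADS2, and for MADS3 (0.08 ± 0.23). AP1 and the FRUITFULL-like VFUL-L had log2 changes of -0.24 ± 0.13 and -0.41 ± 0.17 (adjusted p 0.272 and 0.172). Both were also high in the tendrils of positions 1, 2 and 3, AP1 at 162, 119 and 298 RPKM and VFUL-L at 69.3, 68.5 and 77.0 RPKM. MADS8 had 6.71 and 8.62 RPKM at position 2 and 7.11 and 16.3 RPKM at position 1 (-0.46 ± 0.22, adjusted p = 0.222).

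Of the 5 flowering regulators 3 were tested with limma and 0 were called, with 1 higher at an unadjusted p under 0.05. Over all tested genes 10.8% were called either way. FT, the mobile flowering signal, had 74.6 and 45.2 RPKM at position 2 and 60.6 and 34.4 RPKM at position 1 (0.34 ± 0.14, adjusted p = 0.147). FCA changed by -0.33 ± 0.16 and AP2 by 0.06 ± 0.16, and the AP2 change was about 0 under median-ratio scaling. TFL1A, related to a gene that keeps shoot meristems from flowering, was below the filter of the fit over the inflorescence libraries. It had 0 and 1 reads at position 2 against 12 and 11 reads at position 1, or 0 and 0.0918 RPKM against 1.19 and 0.902 RPKM. MFT had at most 0.126 RPKM at either position.

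**Figure D2:**
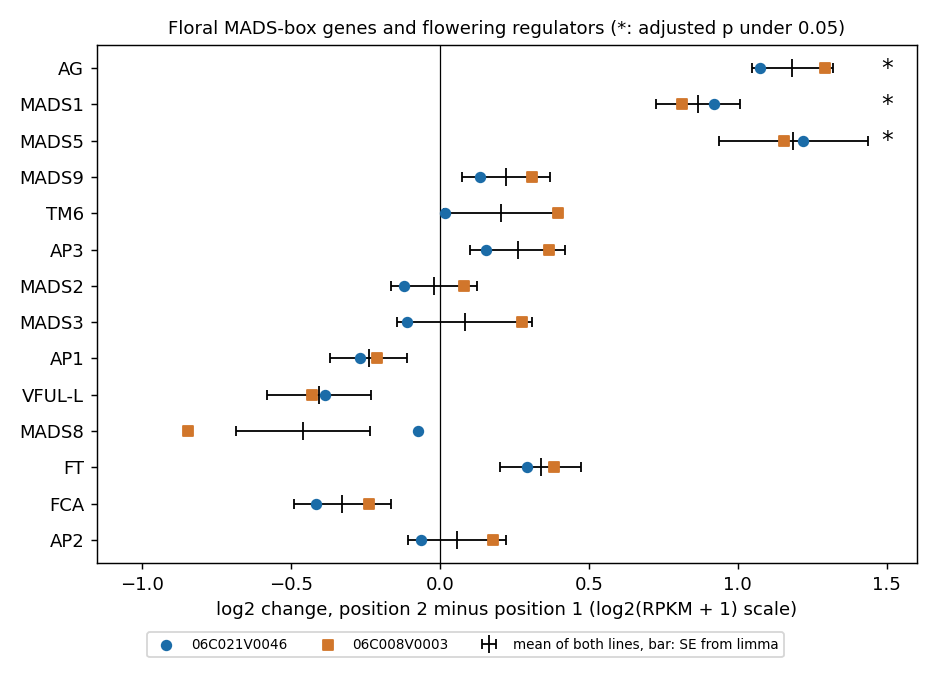
Log2 change, position 2 minus position 1, on the log2(RPKM + 1) scale for 11 floral MADS-box genes and 3 flowering regulators. Circles are 06C021V0046 and squares 06C008V0003, ticks are means of both lines with bars for the SE from limma, and stars mark AG, MADS1 and MADS5, whose points all lie near or above 0.81 while those of the other genes lie at or below 0.40.

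Gibberellin genes went in different directions. Of 5 genes 4 were tested, 1 rose, 1 fell and 2 did not pass the test, beside 5.27% higher and 5.53% lower over all tested genes. GA20ox1, an enzyme of gibberellin synthesis, had 13.8 and 6.01 RPKM at position 2 and 0.864 and 0.596 RPKM at position 1 (log2 change 2.56 ± 0.26, adjusted p = 0.00125). The ratio was 16.0 (95% counting interval 8.94 to 31.6) in 06C021V0046 and 10.1 (5.23 to 21.7) in 06C008V0003, on 12 and 10 reads at position 1. VVGAI1, a DELLA repressor of the gibberellin response, had 2.08 and 1.54 RPKM at position 2 and 7.99 and 4.26 RPKM at position 1 (-1.30 ± 0.22, adjusted p = 0.0105). Its call ended without the position 2 library of 06C021V0046 (0.206) or of 06C008V0003 (0.0936) and with no filter (0.0637), and that of GA20ox1 held under each of these. GA3ox1, which makes the active hormone, changed by -0.48 ± 0.17 (adjusted p = 0.101), and the receptor GID1A by 0.42 ± 0.14 (adjusted p = 0.0856).

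Of 23 sugar transport and cleavage genes 15 were tested, 2 rose, 1 fell and 12 did not pass the test (median log2 change 0.15), beside 5.27% higher and 5.53% lower over all tested genes. The other 8 members were too low to be tested, and the hexose transporters HT9 and HT10, with 0 reads in both libraries of position 1, passed the filter only through position 3. HT9 and HT10 count among the 15 tested and the 12 that did not pass. The list median is HT9's own change, from 4 reads in the position 2 library of 06C021V0046. Beside SWEET15, the hexose transporter HT5 rose, with 7.92 and 6.16 RPKM at position 2 and 3.14 and 2.21 RPKM at position 1 (1.13 ± 0.17, adjusted p = 0.00644). The sucrose transporter VVSUC27, named after its values were seen, had 4.35 and 2.78 RPKM at position 2 and 8.78 and 4.72 RPKM at position 1 (-0.73 ± 0.20, adjusted p = 0.0493). Without the position 2 library of 06C021V0046 the adjusted p was 0.124 for HT5 and 0.469 for VVSUC27, without that of 06C008V0003 0.104 and 0.238, and without the position 1 library of 06C021V0046 0.274 for VVSUC27. With no filter it was 0.0516 for HT5 and 0.125 for VVSUC27, and for VVSUC27 it was 0.0502 under median-ratio scaling, 0.055 under quantile normalization and 0.0616 with a pseudocount of 0.1. PMT2, a polyol transporter, had 2.68 and 1.29 RPKM at position 2 and 0.567 and 0.385 RPKM at position 1 (0.98 ± 0.32, adjusted p = 0.0851).

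Among the largest named falls were MYC1 and WDR1, which the flavonoid list does not hold. MYC1, a basic helix-loop-helix factor of the flavonoid pathway, had 13.3 and 12 RPKM at position 2 and 51.5 and 28.9 RPKM at position 1 (-1.54 ± 0.21, adjusted p = 0.00476). WDR1, a WD-repeat protein of the same kind of complex, had 5.12 and 2.64 RPKM at position 2 and 13.5 and 7.75 RPKM at position 1 (-1.26 ± 0.20, adjusted p = 0.00727). Its relative WDR2, named after its values were seen, had 22.6 and 15.9 RPKM at position 2 and 58.1 and 25.9 RPKM at position 1 (-0.998 ± 0.19, adjusted p = 0.0151). Without the position 2 library of 06C021V0046 the adjusted p of MYC1, WDR1 and WDR2 was 0.12, 0.12 and 0.298, without that of 06C008V0003 it was 0.0563, 0.118 and 0.0801, and without the position 1 library of 06C021V0046 that of WDR2 was 0.0929. With no filter the 3 values were 0.0558, 0.0616 and 0.0738. The regulators that the flavonoid list does hold did not pass the test, with changes of 0.10 ± 0.17 for MYBPA1, -0.11 ± 0.19 for MYB12 and -0.35 ± 0.22 for MYB14 (adjusted p 0.744, 0.748 and 0.347).

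Members of the flavonoid and stilbene list moved both ways. Of 19 tested, 2 rose, 3 fell and 14 did not pass the test (median -0.13), beside 5.27% higher and 5.53% lower over all tested genes. F3'H, which adds a hydroxyl group to the flavonoid B ring, had 37.7 and 17.5 RPKM at position 2 and 127 and 34 RPKM at position 1 (-1.32 ± 0.20, adjusted p = 0.00705). F3'5'H, the enzyme for the more hydroxylated forms, had 8.25 and 6.26 RPKM at position 2 and 3.91 and 3.33 RPKM at position 1 (0.83 ± 0.19, adjusted p = 0.0274). GST4, which carries anthocyanins to the vacuole, fell by 0.97 ± 0.16 on the log2 scale (adjusted p = 0.00968). The remaining called members, named after their values were seen, were CHS2, a chalcone synthase at the pathway's entry (-0.79 ± 0.21, adjusted p = 0.0433), and LAR1, which makes the building blocks of tannins (0.67 ± 0.17, adjusted p = 0.0381). CHS2 had 194 and 125 RPKM at position 2 and 465 and 156 RPKM at position 1, so the groups overlapped. The other chalcone synthases, CHS1 and CHS3, changed by -0.55 ± 0.23 and 0.30 ± 0.17 and did not pass the test (adjusted p 0.159 and 0.291). Without the position 2 library of 06C021V0046 none of the 5 calls held, with adjusted p of 0.164 for F3'H, 0.344 for F3'5'H, 0.143 for GST4, 0.543 for CHS2 and 0.403 for LAR1. Without that of 06C008V0003 they were 0.0472, 0.205, 0.137, 0.112 and 0.221, and the calls of F3'5'H and CHS2 also ended without the position 1 library of 06C021V0046 (0.129 and 0.335), and that of LAR1 without the position 1 library of 06C008V0003 (0.152). With no filter the 5 values were 0.064, 0.0952, 0.0561, 0.141 and 0.109. Those of CHS2 and LAR1 were 0.0654 and 0.0557 under median-ratio scaling and 0.0839 and 0.0778 without the variance trend, and that of CHS2 was 0.0611 with a pseudocount of 5.

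Of 26 defence and pathogenesis-related genes 23 were tested, 4 rose, 2 fell and 17 did not pass the test, beside 5.27% higher and 5.53% lower over all tested genes. At an unadjusted p under 0.05, 4 were higher and 7 lower, and the list's median log2 change was -0.43, opposite in sign to most of its calls. The 23 include PR10.4, PR10.5 and PR10.6, which reached 1 RPKM only at position 3, so their step to position 2 could not be judged. Beside CHI4C, PR10.7 had 769 and 629 RPKM at position 2 and 386 and 188 RPKM at position 1 (1.37 ± 0.20, adjusted p = 0.00626). PR10 proteins are small pathogenesis-related proteins with many similar copies, which these counts may mix. MLO3 and MLO15, of the membrane protein family behind powdery mildew susceptibility, changed by 0.96 ± 0.19 and 0.72 ± 0.18 (adjusted p 0.0187 and 0.0367). CHI1B, another chitinase, had 25.3 and 29.1 RPKM at position 2 and 44.6 and 67.2 RPKM at position 1 (-0.99 ± 0.16, adjusted p = 0.00836). PR10.7, MLO3, MLO15 and CHI1B were named after their values were seen. TL1, a thaumatin-like protein, had 1.54 and 0.15 RPKM at position 2 and 16.1 and 1.00 RPKM at position 1 (-1.78 ± 0.40, adjusted p = 0.0271), so position 1 of 06C008V0003 lay below position 2 of 06C021V0046. PR10.3 had 21.3 and 40.7 RPKM at position 2 and 35.9 and 259 RPKM at position 1 (-1.69 ± 0.54, adjusted p = 0.0795).

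Of the defence calls, that of CHI4C held without any 1 library. Without the position 2 library of 06C021V0046 the adjusted p was 0.0964 for PR10.7, 0.210 for MLO3, 0.431 for MLO15, 0.0974 for CHI1B and 0.379 for TL1. Without that of 06C008V0003 it was 0.124, 0.206, 0.181, 0.145 and 0.0654. Without the position 1 library of 06C021V0046 it was 0.314 for MLO15 and 0.088 for TL1. With no filter it was 0.0698 for PR10.7, 0.0824 for MLO3, 0.109 for MLO15, 0.0525 for CHI1B and 0.125 for TL1. Under median-ratio scaling it was 0.0639 for MLO15 and 0.051 for TL1, without the variance trend 0.0694 for MLO15, and with a pseudocount of 5 0.078 for TL1.

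Of 10 aquaporins 1 rose and 9 did not pass the test (median 0.06), a share near the 10.8% called either way over all tested genes. TIP2;1, a water channel of the vacuole membrane, had 518 and 291 RPKM at position 2 and 289 and 178 RPKM at position 1 (0.77 ± 0.13, adjusted p = 0.0102). GRIP28, first described from ripening grape berries, had 69.9 and 42.3 RPKM at position 2 and 41.6 and 22.2 RPKM at position 1 (0.82 ± 0.14, adjusted p = 0.00991). PL1, a pectate lyase, changed by 0.45 ± 0.13 (adjusted p = 0.0666). Of 4 tested phenylpropanoid genes 1 fell, the methyltransferase OMT1 (-0.60 ± 0.16, adjusted p = 0.0481), beside 5.53% lower over all tested genes. Without the position 2 library of 06C021V0046 the adjusted p of TIP2;1, GRIP28 and OMT1 was 0.263, 0.135 and 0.485, without that of 06C008V0003 0.166, 0.163 and 0.216, and without the position 1 library of 06C021V0046 that of OMT1 was 0.381. With no filter that of TIP2;1 was 0.0683 and that of OMT1 0.101, and OMT1 had 0.0766 without the variance trend, 0.0523 with a pseudocount of 0.1 and 0.0551 with one of 5.

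Of the other lists, limma called 0 of 3 photosynthesis genes (median 0.51, 2 higher at an unadjusted p under 0.05), 0 of 3 heat stress genes (median -0.31, 0 unadjusted) and 0 of 2 ethylene genes (median -0.24, 1 lower unadjusted). Over all tested genes 10.8% were called either way. Of 3 terpene and scent genes MYB24 and GERA had 0 to 2 reads a library at positions 1 and 2 and passed the filter only through position 3, and CCD1, a carotenoid cleaving enzyme, changed by 0.25 ± 0.18 (adjusted p = 0.389). Of the photosynthesis genes, NDHM changed by 0.58 ± 0.21, PSBP2 by 0.51 ± 0.20 and PSBP1 by -0.46 ± 0.23 (adjusted p 0.114, 0.137 and 0.230). The mean changes of these 3 green tissue markers therefore had no common direction, but the lines differed. PSBP1 changed by -1.01 in 06C021V0046, where NDHM and PSBP2 changed by 0.68 and 0.19. In 06C008V0003 all 3 changes were positive, at 0.08 for PSBP1, 0.49 for NDHM and 0.83 for PSBP2. The lists for auxin, cytokinin, abscisic acid, cell cycle and histones, and pollen and anther matched no named gene, so those processes were not analysed here.

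Other large named falls were in CASPL2C1, a membrane protein related to those of the Casparian strip, HP2 and the alcohol dehydrogenase ADH3. CASPL2C1 had 6.32 and 7.04 RPKM at position 2 and 22.7 and 30.7 RPKM at position 1 (-1.84 ± 0.18, adjusted p = 0.00104), with no overlap. HP2 had 13.8 and 12 RPKM at position 2 and 34.3 and 30.9 RPKM at position 1 (-1.27 ± 0.16, adjusted p = 0.00308). ADH3 had 6.22 and 6.13 RPKM at position 2 and 19.0 and 14.3 RPKM at position 1 (-1.28 ± 0.21, adjusted p = 0.00869). The call of CASPL2C1 held without any 1 library, while those of HP2 and ADH3 ended without the position 2 library of 06C021V0046 (0.0756 and 0.167) or of 06C008V0003 (0.0701 and 0.105), and that of ADH3 with no filter (0.0683).

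**Figure D3:**
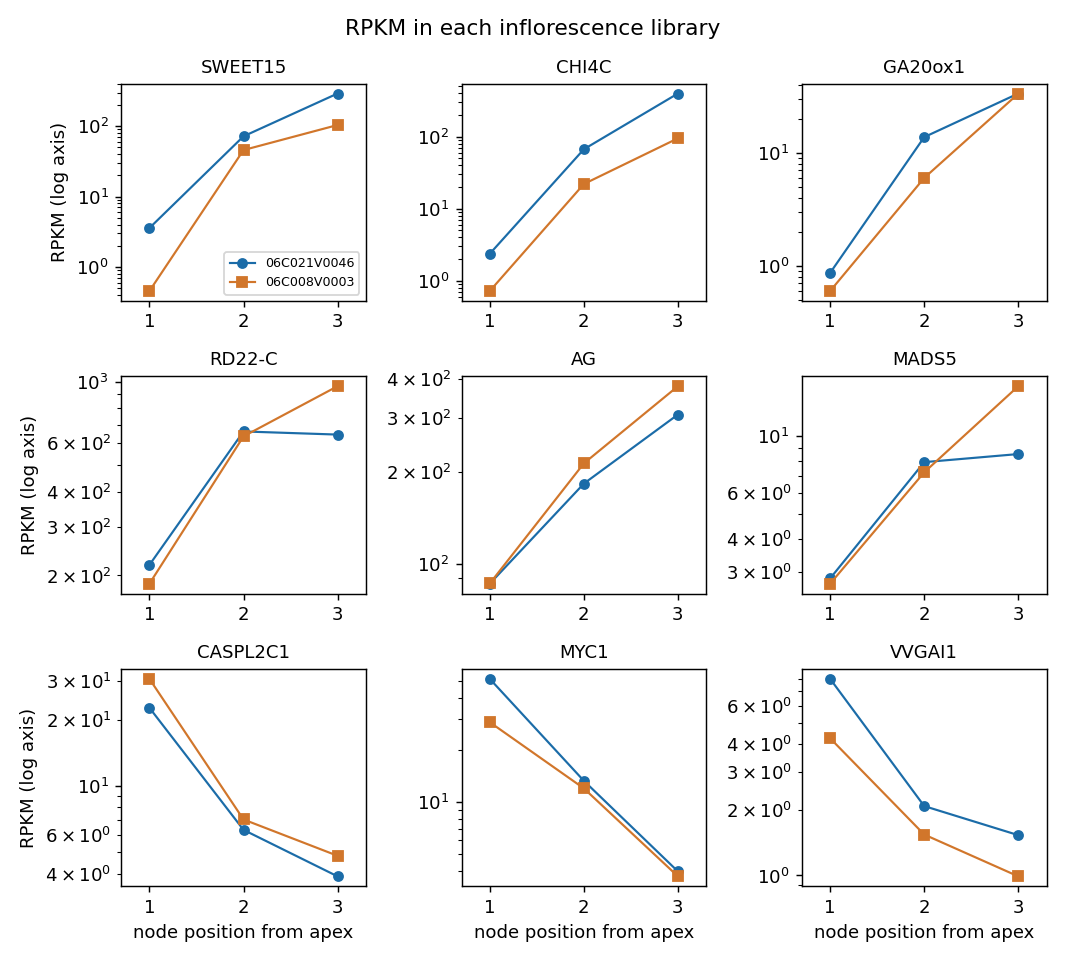
RPKM (log axis) at node positions 1, 2 and 3 in each inflorescence library of 9 genes, with circles for 06C021V0046 and squares for 06C008V0003. SWEET15, CHI4C and GA20ox1 climb at both steps, RD22-C in 06C021V0046 climbs only at the first (661 RPKM at position 2 and 644 RPKM at position 3), and CASPL2C1, MYC1 and VVGAI1 descend.

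The largest changes of all were in genes known here by locus number only, for which no role is given. LOC100257863 had 91.5 and 34.4 RPKM at position 2 and 1.90 and 0.0629 RPKM at position 1 (5.03 ± 0.30, adjusted p = 8.3e-05). Its ratio was 48.3 (95% counting interval 32.5 to 74.9) in 06C021V0046 and 547 (97.8 to 21662) in 06C008V0003, where position 1 had 1 read. LOC100263177 had 44.1 and 29.2 RPKM at position 2 and 1.16 and 0.321 RPKM at position 1 (4.45 ± 0.21, adjusted p = 2.6e-05). The lines differed most at position 1 for 3 others. LOC100253145 had 194 and 84.2 RPKM at position 2 and 14.3 and 0.547 RPKM at position 1 (4.73 ± 0.43, adjusted p = 0.000839). LOC100242587 had 1076 and 458 RPKM at position 2 and 108.9 and 6.06 RPKM at position 1 (4.66 ± 0.56, adjusted p = 0.00261). LOC100242385 had 380.2 and 264 RPKM at position 2 and 47.0 and 2.39 RPKM at position 1 (4.64 ± 0.62, adjusted p = 0.00415). In these 3 the ratio was 13.5 (10.5 to 17.7), 9.88 (8.94 to 10.9) and 8.09 (7.49 to 8.75) in 06C021V0046, and 154 (52.4 to 750.3), 75.5 (52.4 to 113) and 110.4 (82.4 to 152) in 06C008V0003. The calls of LOC100242587 and LOC100242385 ended without the position 2 library of 06C008V0003 (adjusted p 0.0501 and 0.0597) and with no filter (0.0589 and 0.0682).

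In the 2 steepest falls the lines changed by close amounts, by -4.48 and -4.28 on the log2 scale for LOC100265128 and by -3.88 and -4.19 for LOC100241824. LOC100265128 had 5.89 and 4.99 RPKM at position 2 and 153 and 115 RPKM at position 1 (-4.38 ± 0.20, adjusted p = 2.6e-05). LOC100241824 had 4.78 and 3.84 RPKM at position 2 and 84.2 and 87.2 RPKM at position 1 (-4.03 ± 0.19, adjusted p = 2.6e-05). LOC100259372 had 1.17 and 1.46 RPKM at position 2 and 25.3 and 43.3 RPKM at position 1 (-3.89 ± 0.24, adjusted p = 0.000124). All 3 were at or below 0.287 RPKM at position 3, and all 3 were plentiful in the leaf pools of 06C021V0046 (117, 13.9 and 45.9 RPKM) and Pinot Meunier L2 (306, 150.3 and 104 RPKM). LOC100246174 had 0.452 and 1.97 RPKM at position 2 and 7.4 and 66.6 RPKM at position 1 (-3.52 ± 0.55, adjusted p = 0.00717), and LOC100267709 had 3.20 and 3.62 RPKM at position 2 and 27.4 and 68.9 RPKM at position 1 (-3.34 ± 0.36, adjusted p = 0.00155). The call of LOC100246174 ended without the position 2 library of 06C021V0046 (0.0911) or of 06C008V0003 (0.0955), and with no filter (0.075).

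Whether a change belonged to the step from position 1 to 2 more than to the next was tested as the first step minus the second, in the same fit. The steps share the position 2 libraries, so a high or low value there enters both. SWEET15, HP2 and the locus numbers below were named for their large first steps. That choice favours a first step larger than the second. Genes that passed the filter only through position 3, such as MYB24, GERA and PR10.5, are in the counts that follow. For them a negative difference was fixed by the filter, and how many such genes there are was not counted. The difference was positive for 152 genes (0.807%) and negative for 208 (1.10%). SWEET15 had a positive one, with a first step of 4.50 ± 0.23 and a second of 1.58 ± 0.23 (difference 2.91 ± 0.40, adjusted p = 0.0163), and so had LOC100257863 and LOC100263177 (3.01 ± 0.52 and 2.84 ± 0.37, adjusted p 0.0353 and 0.0127). HP2 fell at the first step and changed by 0.10 ± 0.16 at the second (-1.37 ± 0.28, adjusted p = 0.0488). The 4 steeply falling genes LOC100265128, LOC100241824, LOC100259372 and LOC100267709 also fell more at the first step than at the second (-1.97 ± 0.35, -1.93 ± 0.33, -2.72 ± 0.42 and -3.33 ± 0.62, adjusted p 0.0359, 0.0334, 0.0261 and 0.0403). HT5 went the other way, with a second step of 2.72 ± 0.17 that was larger than its first (-1.59 ± 0.30, adjusted p = 0.0401). TL1 turned, falling at the first step and rising by 2.23 ± 0.40 at the second (-4.01 ± 0.69, adjusted p = 0.0353). Its position 2 value in 06C008V0003, which enters both steps, rests on 2 reads, against 15 reads at position 1.

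MYB24 and GERA, of the scent list, passed the filter only through position 3, so no test of their steps is given. MYB24, a transcription factor of late flower development in Arabidopsis, had 0 reads in both libraries of position 2 and 1 and 0 reads at position 1, and 13.3 and 56.3 RPKM at position 3. GERA had at most 0.0971 RPKM at positions 1 and 2 and 56.9 and 314 RPKM at position 3. CCOAMT, a methyltransferase of lignin synthesis, changed by 0.55 ± 0.20 at the first step (adjusted p = 0.109) and by 2.46 ± 0.20 at the second (difference -1.91 ± 0.34, adjusted p = 0.0361). The first steps of AG and GA20ox1 were 1.18 ± 0.14 and 2.56 ± 0.26 and their second steps 0.79 ± 0.14 and 1.77 ± 0.26, and the differences did not pass the test (adjusted p 0.338 and 0.313). The count of 360 such genes was 2 without the position 2 library of 06C008V0003, 51 without that of 06C021V0046, between 702 and 3206 without any other single library, and by limma 0 without the block (1274 at an unadjusted p under 0.05) and 0 with no filter (4660).

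The same step in tendrils was taken from 1 library a position of Pinot Meunier L2, so it has no replicate of its own, and organ and genotype cannot be told apart. Across all tested genes 652 (3.46%) were up and 816 (4.33%) down at least 2-fold between tendril positions 2 and 1. Of the 289 genes up in both picovine lines, 3 (1.04%) were up and 64 (22.1%) down in tendrils, and of the 224 genes down in both lines, 60 (26.8%) were up and 4 (1.79%) down. The median tendril change was -0.13 for the genes up (quartiles -0.79 and 0.05), 0.50 for the genes down (0.04 and 1.04) and 0.0038 for all tested genes (-0.31 and 0.33). The tendril library of position 2 was the shallowest of the study, with 7.36 M reads against 9.92 M at position 1, and the part of depth in these shares was not tested. Among the named genes below, RD22-C, PR10.7, VVGAI1 and MYC1 had values in this library outside the range of tendril positions 1 and 3. The part of this single library in the shares was not tested either.

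**Figure D4:**
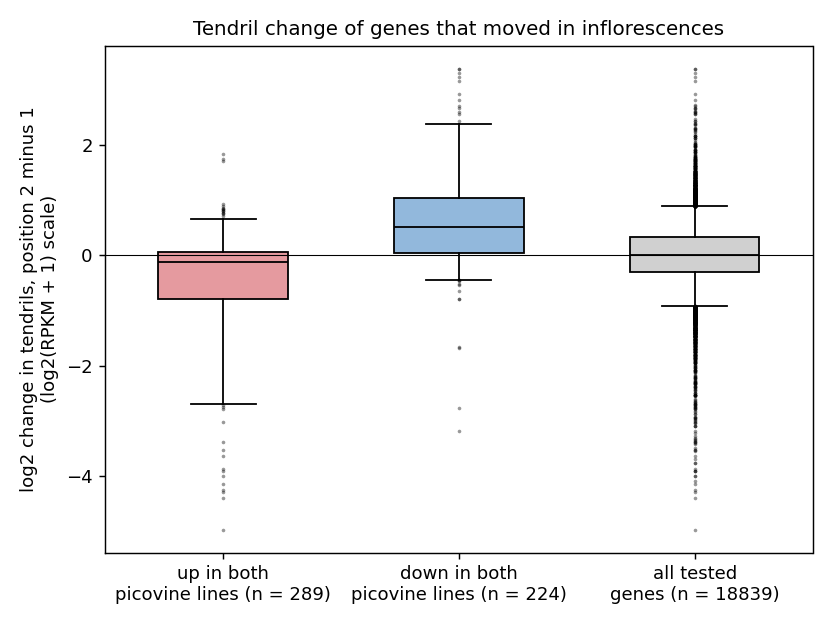
Log2 change in Pinot Meunier L2 tendrils, position 2 minus position 1, on the log2(RPKM + 1) scale, for the 289 genes up and the 224 genes down at least 2-fold in both picovine lines and for all 18839 tested genes. Boxes span the quartiles with the median as a line (-0.13, 0.50 and 0.0038), whiskers reach the percentiles 5 and 95, and points lie beyond them.

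Tested directly in the 11 libraries, the inflorescence step minus the tendril step was positive for 1257 genes (6.36% of 19761) and negative for 1254 (6.35%). This test assumes that the single tendril libraries vary like the inflorescence ones, and its p-values hold no spread between tendrils. RD22-C stood out among the named genes, with 7.78 RPKM in tendrils of position 2 and 166 RPKM in those of position 1, while it rose in inflorescences (difference 5.93 ± 0.35, adjusted p = 0.0015). PR10.7 had 15.4 RPKM in tendrils of position 2 and 152 RPKM at position 1 (4.59 ± 0.37, adjusted p = 0.00267). VVGAI1 had 68.3 RPKM in tendrils of position 2 and 38.6 RPKM at position 1 (-2.10 ± 0.35, adjusted p = 0.0165), and MYC1 had 103.9 RPKM in tendrils of position 2 and 58.2 RPKM at position 1 (-2.37 ± 0.36, adjusted p = 0.0144). In tendrils of position 3, RD22-C had 478 RPKM, PR10.7 216 RPKM, VVGAI1 3.21 RPKM and MYC1 5.65 RPKM. For each of these genes the single tendril library of position 2 thus lay outside the range of positions 1 and 3. SWEET15 and AG were at or below 0.119 RPKM in the tendrils of positions 1 and 2, so for them the difference restates the inflorescence step and is not given as support. HT5 had 4.87 RPKM in tendrils of position 2 and 2.23 RPKM at position 1, and its difference of 0.27 ± 0.28 did not pass the test (adjusted p = 0.549). The count of 2511 was 139 without the inflorescence library of position 2 of 06C021V0046, 234 without that of 06C008V0003, 32 without the block, and 0 with no filter by limma (6629 at an unadjusted p under 0.05).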

How the data were processed

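Single-end Illumina mRNA libraries were sequenced, per the labels' protocols. The authors deposited 1 RPKM value per gene and library, for 25771 gene numbers, and the submitters' processing notes name Bowtie 0.12.7 and TopHat 1.2.0. Build, annotation and counting tool are not given in the sources used here. One protocol text writes the line 06C021V0046 with another year prefix, and the sample labels were followed. Names and gene order, but no positions, came from a RefSeq table (ASM3070453v1), which held 18647 gene numbers (72.4%), 309 of them with a name other than a locus number.

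Read numbers were recovered from the RPKM steps (100% of values whole, tolerance 0.01), and intervals at the 95% level cover counting error only. Genes with at least 1 RPKM in at least 2 libraries were tested with limma 3.58.1 (R 4.3.3, variance trend, Benjamini-Hochberg adjustment, two-sided, threshold 0.05) on log2(RPKM + 1). The 6 inflorescence libraries were fitted with position as a factor and line as the block, with 2 residual and 6.77 prior degrees of freedom, and the tendril contrast used all 11 libraries, with 2 and 4.68. Same-numbered libraries are the same line, so numbers pair the libraries by design, and the difference between the lines correlated over genes between positions 2 and 1 (0.638). P-values and SEs rest on a spread that limma drew mostly from the trend over all genes, and in part from the position 3 libraries. An SE can therefore be smaller than the difference between the lines, as for LOC100242385, with changes of 2.99 and 6.29 and an SE of 0.62. The script was tested on simulated data.

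Named genes were the 12 largest rises and falls (at least 2-fold in both lines, 5 RPKM at the higher position), fewer where fewer passed, all floral MADS-box and flowering genes, the 3 largest changes of each other list, and 5 locus numbers each way (20 RPKM). The 18 lists, of which 13 had members, and the comparison itself were chosen with earlier results of these data known. Alternatives were the scaling, filter, pseudocount, variance trend, block, libraries fitted and leaving out each inflorescence library. Leaving a position with 1 library assumes that it varies like the others.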

Additional observations from a re-analysis of the deposited data

Results flagged for a closer look

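The inflorescence step from position 1 to 2 differed from the tendril step by limma's test of the difference (adjusted p under 0.05, with 1 tendril library a position, so that no spread between tendrils enters) for the following genes, given as the inflorescence log2 change minus the tendril one. The step was more positive in inflorescences for SWEET15 (4.50), CHI4C (3.87), GA20ox1 (2.40), RD22-C (5.93), GER6 (1.40), AG (1.35), HYD2 (1.24) and PR10.7 (4.59). It was also more positive for TIP2;1 (2.52), GRIP28 (2.28), PL1 (2.74), MLO15 (1.55), LAR1 (1.97) and ADH1 (0.85), and for LOC100257863 (5.03), LOC100253145 (4.73), LOC100242587 (4.48) and LOC100263177 (5.09). SWEET15, LOC100257863 and LOC100253145 were listed at 0 in the tendrils of both positions, so their values equal the inflorescence step. TIP2;1, GRIP28, PL1 and LAR1 were lower in tendrils of position 2 than in those of position 1, and PL1 had 47.5 RPKM at position 2 and 237 RPKM at position 1. In tendrils of position 3 these genes had 1458, 578, 605.5 and 50.6 RPKM in that order, above both other positions.

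The step was more negative in inflorescences for CASPL2C1 (-2.48), MYC1 (-2.37), VVGAI1 (-2.10), WDR1 (-1.93), TIP4 (-1.86), CHI1B (-2.07), F3'H (-2.04), OMT1 (-1.13) and TFL1A (-1.96), which passed the filter of this fit over all 11 libraries. It was also more negative for LOC100265128 (-6.82), LOC100241824 (-6.69), LOC100259372 (-4.58) and LOC100267709 (-2.70). LOC100265128 was listed at 0 in tendrils of position 1 and had 4.41 RPKM in those of position 2. For each gene of this paragraph but LOC100267709, the tendril library of position 2 stood above those of positions 1 and 3.

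The 6 genes that passed 2-fold in opposite directions all went up in 06C021V0046 and down in 06C008V0003, and the difference between the lines was not tested. The log2 changes in 06C021V0046 and 06C008V0003 were 1.03 and -1.54 for the gene numbered 100232914, 1.72 and -1.03 for LOC100241354, and 1.13 and -2.76 for LOC100244918. They were 1.02 and -2.10 for LOC100256273, 2.66 and -1.44 for LOC100260284, and 2.13 and -1.84 for LOC100262021.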

How the results depend on the processing

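The replicate block (the line) decided most calls. Without it, 3 genes were called higher and 7 lower (992 and 1042 with it), 0 for the difference between the steps (360 with it) and 32 for the difference from tendrils (2511 with it). Of 44 called genes named in the text, 40 lost their call without the block, 4 were called under every alternative run (LOC100263177, LOC100265128, LOC100241824 and LOC100259372) and 11 under every one that kept the block. With no filter on low values the counts were 171 higher, 110 lower, 0 for the steps by limma (4660 at an unadjusted p under 0.05) and 0 for tendrils (6629), on more genes tested, and 28 of the 44 calls ended. With only positions 1 and 2 in the fit, 1882 were called higher and 2120 lower. Leaving out 1 inflorescence library gave 81 to 1832 higher, 40 to 1971 lower, 2 to 3206 for the steps and 139 to 3452 for tendrils. Each position 2 library left out ended 31 of the 44 calls, and no direction of a called gene reversed. With a pseudocount of 0.1 or 5, 539 or 108 genes were up in both lines, 396 or 62 were down in both lines, and 167 or 101 were called for the steps. The steps gave 107 under median-ratio scaling and 135 without the variance trend. All 11 libraries in one fit, added after seeing the data, gave 714 higher and 719 lower. The share of calls that were higher was 48.8% as reported, 47.0% under quantile normalization and 42.0% under median-ratio scaling. The other alternatives left these counts within 1.5 times, and where counts moved the cause was not tested beyond the number of genes or libraries fitted. Counts in both lines were not run with fit settings, and the difference between steps or from tendrils was not run with positions 1 and 2 alone. Few reads at position 1 widen the counting intervals, as for LOC100257863 with 1 read in 06C008V0003 (97.8 to 21662).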

Other observations

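PDS1 and LECY1, carotenoid genes outside the lists that were named after their values were seen, were called higher at position 2, as 5.27% of all tested genes were. PDS1, the phytoene desaturase, had 29.5 and 28.1 RPKM at position 2 and 17.7 and 19.1 RPKM at position 1 (log2 change 0.62 ± 0.16, adjusted p = 0.0372). LECY1, a lycopene cyclase of the lutein branch, had 27.7 and 27.9 RPKM at position 2 and 18.8 and 12.9 RPKM at position 1 (0.80 ± 0.18, adjusted p = 0.0276). The cyclase LBCY1 of the other branch (0.09 ± 0.21), the hydroxylase BCH1 (-0.22 ± 0.25) and the epoxidase ZEP (0.19 ± 0.20) did not pass the test. Both calls ended without the position 2 library of 06C021V0046 (adjusted p 0.468 and 0.214) or of 06C008V0003 (0.182 and 0.262), that of PDS1 also without either position 1 library (0.14 and 0.0731), and that of LECY1 without the position 1 library of 06C008V0003 (0.125). With no filter the adjusted p was 0.0863 for PDS1 and 0.0912 for LECY1, and without the variance trend 0.0626 for PDS1.

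The alcohol dehydrogenases differed among themselves. Beside ADH3, ADH2 had 48.0 and 43.4 RPKM at position 2 and 90.3 and 81.3 RPKM at position 1 (-0.89 ± 0.16, adjusted p = 0.0136), and ADH1 had 136 and 106 RPKM at position 2 and 128 and 86.9 RPKM at position 1 (0.18 ± 0.13, adjusted p = 0.411). ADH1 and ADH2 were chosen after their values were seen, and the call of ADH2 ended without the position 2 library of 06C021V0046 (0.141) or of 06C008V0003 (0.180) and with no filter (0.0683).

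Some genes that moved together sit side by side in the RefSeq gene order. Of 252 genes up in both lines with a place in that order, 26 (10.3%) were next to another of them, against 3.20% of all placed tested genes that were next to one. Of 191 placed genes down in both lines, 23 (12%) were next to another, against 2.43%. Neighbouring copies can share reads, and the part of that in these counts was not tested.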
